A study of Mus musculus with 12 samples.

Results

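Immediate early genes encode transcription factors that cells switch on within minutes of a growth factor, stress or calcium signal, without new protein synthesis. A set of 10 such genes, matched to their Ensembl identifiers, were followed here across all libraries: Egr1, Egr2, Egr3, Nr4a1, Ier2, Fos, Fosl1, Fosl2, Jun and Junb. All 10 were found among the 12591 genes listed in the deposited table. The list was chosen with results of these libraries known, among them the rise of Egr3 under adenine, so that the changes of its members are given as descriptions, with no p-value.

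The cells were embryonic fibroblasts (MEFs) of the strain C57 PER2::LUC, a luciferase reporter of the clock protein PER2. They were grown to confluence, given new medium with the treatment, and lysed 24 h later. The 4 groups were CTL, 10 μM DZ (deazaneplanocin A, an inhibitor of AHCY, the enzyme that hydrolyses S-adenosylhomocysteine), 1 mM adenine and 1 mM SAM (S-adenosylmethionine, the methyl donor), and all 4, CTL included, held 3.3 mM HCl. The paper lists its PER2::LUC cells as cell lines and, for its rhythm recordings, describes them as immortalized. Each group had 3 dishes, which the paper calls replicate dishes, so the spread between them is one between dishes and may be technical.

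EGR proteins are zinc-finger factors that bind GC-rich promoter sites, and the NAB proteins that they induce bind them in turn and restrain them. FOS and JUN proteins pair through leucine zippers to form AP-1, and which partners are present sets which genes are bound and how strongly. In fibroblasts the ERK kinase cascade acts on these genes through serum response factor (SRF) bound to CArG boxes and through CREB bound to cAMP response elements (CRE). Their mRNAs are usually short-lived, and the levels here were measured a day after treatment.

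The values are log2 CPM (log2 of the reads of a gene, scaled to a library size that the authors normalized). Whole reads recovered from them gave between 45649534 and 56789090 reads on the listed genes per library, and no gene had fewer than 46 reads in any library. SAM replicate 3 stood apart, as its chi-square over the genes, per degree of freedom, was 19.1 and 15.7 against the other SAM dishes, where all other pairs of dishes of a group lay between 4.76 and 7.07. Without it, all 10 members kept their calls under SAM and 72 of 102 listed pathway genes were called in place of 75, and the values it moved most are given beside the genes. Of 12 fibroblast markers, 10 were listed, and Dcn and Lum were not. Their summed level was 2.39e+04 to 2.44e+04 CPM in CTL, 3.04e+04 to 3.11e+04 in DZ, 2.77e+04 to 3.02e+04 in adenine and 1.98e+04 to 2.11e+04 in SAM. None of 6 endothelial and none of 6 epithelial markers was listed. The authors kept only genes that reached a minimum CPM in every sample, so a gene not listed may still be expressed in some dishes. Of 7 leukocyte markers, Cd68 and Cd74 were listed, with Ptprc, Adgre1, Lyz2, Csf1r and Itgam not listed, and their summed level was 106 to 111 CPM in CTL, 86.7 to 96.3 in DZ, 136 to 153 in adenine and 182 to 200 in SAM. Of 9 Schwann cell and neuronal markers, Mbp, Tubb3 and Map2 were listed (Sox10, S100b, Rbfox3 and Snap25 were among those that were not), at 16.3 to 16.5 CPM in CTL, 16.6 to 19.3 in DZ, 31.2 to 32.8 in adenine and 22.9 to 25.4 in SAM. The leukocyte and the Schwann and neuronal sums were highest under adenine and SAM. The fibroblast sum was highest under DZ and lowest under SAM, but a sum follows its most abundant genes. Under SAM, 9 of the 10 fibroblast markers were called higher, beside 33.7% of all genes, and Fn1 was called lower (log2 fold change -1.58). Cd68 and Cd74 were both called higher under adenine and under SAM. Map2 rose under adenine and SAM (1.54 and 1.41). Tubb3 rose under adenine (0.99) but fell under SAM (-0.48), and Mbp rose under SAM (0.61) but not under adenine (-0.07). The part of these markers in the results was not tested.

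A gene is called higher or lower below where its limma test passed a false discovery rate (FDR) of 0.01, adjusted by Benjamini-Hochberg over all 12591 genes. When plain read totals replaced the authors' scaling, the middle of all log2 fold changes shifted for SAM against CTL from a median of -0.02 to 0.11, and the share of higher genes among those called moved from 48.5% to 61.2%. The same change moved that share from 48.6% to 63.2% for SAM against adenine. No member changed direction under that scaling in any comparison.

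The 3 EGR genes rose together under adenine and, by less, under SAM. Egr1, the best known growth-factor-induced member of the family (chromosome 18), stood at 6.73, 6.81 and 6.91 log2 CPM in the CTL dishes and at 7.16, 7.10 and 7.10 in DZ. It reached 8.40, 8.43 and 8.44 under adenine and 7.93, 7.91 and 7.89 under SAM. The 4 groups did not overlap, in the order CTL, DZ, SAM, adenine. Relative to CTL, Egr1 was 3.05-fold higher under adenine (log2 fold change 1.61, SE 0.037), 2.13-fold higher under SAM (1.09) and 1.24-fold higher under DZ (0.30). In bulk RNA, more cells with a high level and a higher level in each cell cannot be told apart.

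Egr3 (chromosome 14, 70314350 to 70320063), a close relative that binds the same sites as Egr1, gave 2.18, 2.04 and 2.09 log2 CPM in CTL and 2.49, 2.42 and 2.30 in DZ. Adenine brought it to 5.36, 5.31 and 5.35, and SAM to 3.83, 4.05 and 3.92. Its groups were separated in the same order as those of Egr1. In reads, the CTL dishes held 193 to 199 and the adenine dishes 2024 to 2225. The rise was 9.41-fold under adenine (log2 fold change 3.23, SE 0.074), 3.55-fold under SAM (1.83) and 1.23-fold under DZ (0.30). The DZ call of Egr3 was lost without CTL replicate 2 (0.27), DZ replicate 1 (0.26) or DZ replicate 2 (0.29), and also under voom (0.30, SE 0.11) and a model of these groups alone (SE 0.10).

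Egr2 (chromosome 10, 67371305 to 67378018), known for its part in myelination by Schwann cells, was the least abundant member, with 0.17, 0.67 and 0.41 log2 CPM in CTL and 0.18, 0.33 and 0.77 in DZ. It gave 3.77, 3.76 and 3.70 under adenine and 1.54, 1.66 and 1.49 under SAM. CTL and DZ overlapped, whereas SAM lay above both and adenine above SAM. These levels rest on 48 to 74 reads per CTL dish, 54 to 79 in DZ, 139 to 178 in SAM and 641 to 749 in adenine. Adenine raised Egr2 10.0-fold (log2 fold change 3.33, SE 0.15) and SAM 2.22-fold (1.15), and DZ gave 0.01 with the same SE. Sox10, which marks Schwann cells, was not listed in the table, which leaves out a gene that is low in any sample.

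By the size of the log2 fold change under adenine, Egr2 ranked 2 and Egr3 ranked 4 among the 12591 genes, Fos ranked 59, Egr1 292 and Jun 412. Under SAM the highest of the 10 were Fos at rank 290 and Egr3 at rank 303. Under DZ, Jun at rank 468 was the highest.

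**Figure D1:**
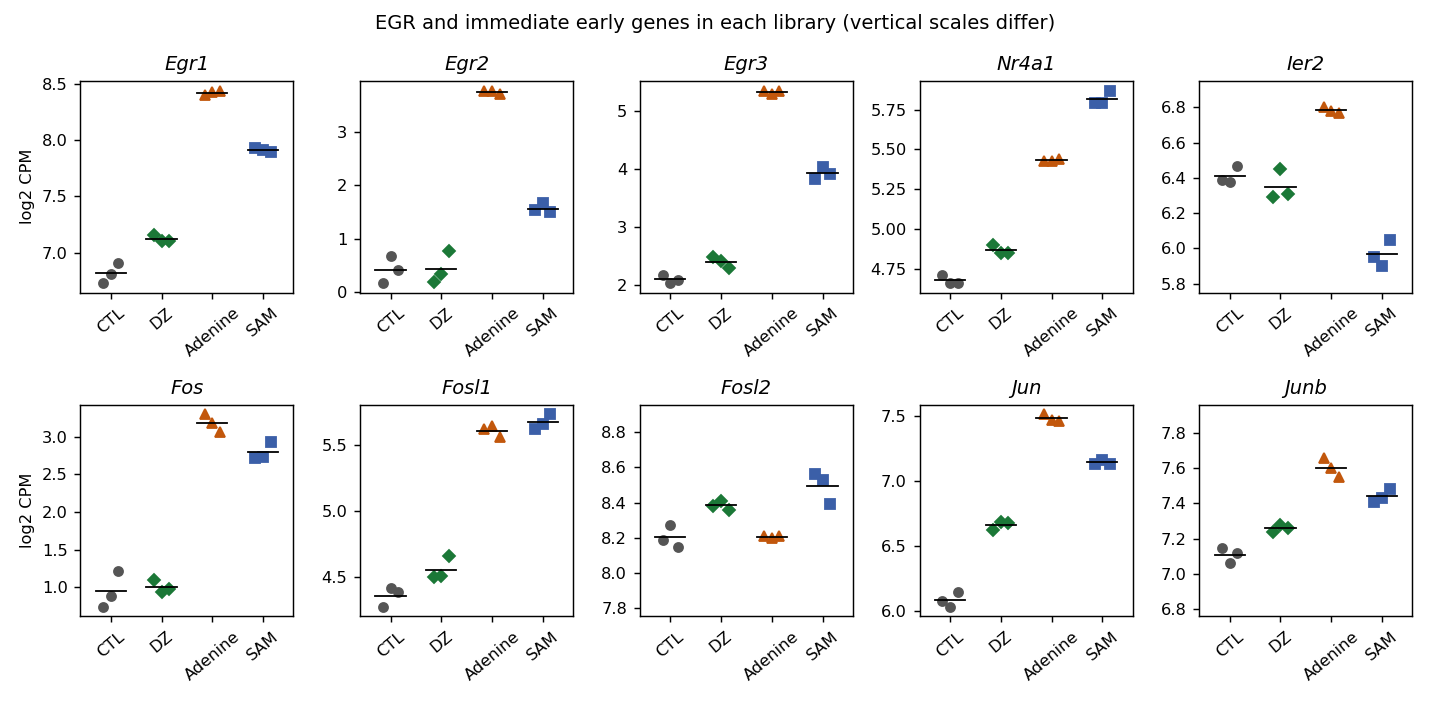
Log2 CPM of the 10 genes in each of the 12 libraries, 1 panel per gene, with the group on the horizontal axis, 1 point per dish and a line at the mean of the 3 dishes. Egr1, Egr2, Egr3, Fos, Jun, Junb and Ier2 are highest under adenine, whereas Nr4a1 is highest under SAM and Fosl2 is as low under adenine as in CTL. Vertical scales differ between panels, and a panel spans at least 1.2 log2 units.

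Egr2 is shown with the 250 bases before the start of its canonical transcript (GENCODE vM39, GRCm39), as the member with the largest change against CTL. These bases carry a CArG box, the SRF site. Capitals mark the box, which was searched for on both strands as CC, then only A or T, then GG, 10 bases in all. Other forms of the box were not searched for.
Egr2, chr10:67373442-67373691, plus strand: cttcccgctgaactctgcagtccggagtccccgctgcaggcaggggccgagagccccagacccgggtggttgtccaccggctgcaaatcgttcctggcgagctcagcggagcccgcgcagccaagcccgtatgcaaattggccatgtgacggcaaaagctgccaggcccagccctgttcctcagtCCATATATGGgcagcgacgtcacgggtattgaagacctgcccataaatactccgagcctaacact
The window lies inside the annotated span of Egr2, which begins before the canonical start. Whether it overlaps an exon of another Egr2 transcript was not examined. The box stood 65 to 56 bases before the start, and the CRE core TGACG stood 104 to 100 bases before it and, on the opposite strand, 48 to 44 bases before it.

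Of the 9 members whose windows are reported, Egr2 was the 1 with a CArG box, which 161 of all 12575 windows held (1.28%). The CRE core TGACG was found in 6 of these members (Egr1, Egr2, Fos, Junb, Ier2 and Nr4a1) and in 23.2% of all windows. The whole CRE, TGACGTCA, which contains that core, was found in Ier2 and in 1.95% of windows. The AP-1 site TGANTCA (4.62% of windows) and the EGR site GCGNGGGCG (6.08%) were found in none of the 9. For each motif, the CArG box included, no match says only that its letters are absent from these windows. Sites farther from the start were not searched.

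Nr4a1 (chromosome 15, 101151980 to 101172681) encodes an orphan nuclear receptor and was highest under SAM. It gave 4.71, 4.66 and 4.66 log2 CPM in CTL and 4.90, 4.85 and 4.85 in DZ. It gave 5.43, 5.43 and 5.44 under adenine and 5.79, 5.79 and 5.87 under SAM. No groups overlapped, with SAM 2.21-fold above CTL, adenine 1.70-fold (log2 fold change 0.76, SE 0.039) and DZ 1.14-fold (0.19). Nr4a1 was 1.30-fold higher under SAM than under adenine (0.38), opposite to Egr1, Egr2 and Egr3.

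Ier2 (chromosome 8, 85387960 to 85389483), a small nuclear protein induced with the EGR genes, was the member that fell under SAM. The dishes gave 6.39, 6.38 and 6.47 log2 CPM in CTL, 6.29, 6.45 and 6.31 in DZ, 6.80, 6.78 and 6.77 under adenine, and 5.95, 5.90 and 6.05 under SAM. All SAM dishes lay below all others and all adenine dishes above all others, whereas CTL and DZ overlapped. Ier2 was 1.36-fold lower under SAM (log2 fold change -0.44, SE 0.047) and 1.29-fold higher under adenine (0.37), and DZ gave -0.06.

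The 3 FOS genes among the members parted ways. Fos itself (chromosome 12, 85520658 to 85524047), the short-lived founding member, was low in CTL at 0.74, 0.88 and 1.21 log2 CPM and in DZ at 1.09, 0.93 and 0.97. It gave 3.30, 3.18 and 3.07 under adenine and 2.72, 2.73 and 2.93 under SAM. CTL and DZ overlapped, and both other groups lay above them. The rise was 4.72-fold under adenine (log2 fold change 2.24, SE 0.12) and 3.61-fold under SAM (1.85, or 1.78 without SAM replicate 3), and DZ gave 0.05. The count of reads behind these levels was 72 to 104 per dish in CTL and 413 to 534 in adenine.

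Fosl1 (chromosome 19, 5497575 to 5505974) encodes FRA1, an AP-1 subunit that lacks the transactivation domain of FOS. CTL dishes gave 4.28, 4.42 and 4.39 log2 CPM, DZ 4.50, 4.51 and 4.66, adenine 5.62, 5.64 and 5.56, and SAM 5.62, 5.66 and 5.73. Adenine and SAM overlapped and both lay above DZ, which lay above CTL. Fosl1 was 2.37-fold higher under adenine (log2 fold change 1.24, SE 0.054), 2.47-fold higher under SAM (1.31) and 1.14-fold higher under DZ (0.19). The DZ call was lost without CTL replicate 1 (0.15), CTL replicate 3 (0.20) or DZ replicate 3 (0.14), and also under voom, quantile normalization, median centring, a fit without variance trend and a model of these groups alone. Ccdc85b, which overlaps Fosl1 on the opposite strand, rose by 0.48 under adenine (adjusted p = 4.06e-07) and, with SAM, by 0.71 (adjusted p = 2.72e-09, both by limma and Benjamini-Hochberg).

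Fosl2 (chromosome 5, 32292707 to 32315186), which encodes FRA2, was the most abundant FOS gene and the one that adenine left at the CTL level. It gave 8.19, 8.27 and 8.15 log2 CPM in CTL and 8.21, 8.20 and 8.21 under adenine. It gave 8.38, 8.41 and 8.36 under DZ and 8.56, 8.53 and 8.39 under SAM. Adenine overlapped CTL, with a log2 fold change of 0.00 and an SE of 0.041, and DZ overlapped SAM through SAM replicate 3, the lowest of its group. Fosl2 was 1.22-fold higher than CTL under SAM (0.29, or 0.34 without that dish) and 1.13-fold higher under DZ (0.18), and the DZ call was lost without CTL replicate 3 (0.15) or DZ replicate 2 (0.16).

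Jun (chromosome 4, 94937271 to 94940459), the AP-1 partner with the strongest transactivation, moved under every treatment. It gave 6.07, 6.03 and 6.14 log2 CPM in CTL, 6.62, 6.68 and 6.67 in DZ, 7.51, 7.47 and 7.46 under adenine, and 7.13, 7.16 and 7.13 under SAM. No groups overlapped. Jun was 2.63-fold higher under adenine, 2.08-fold under SAM and 1.49-fold under DZ (log2 fold change 0.58, SE 0.033), the largest change of the 10 genes under DZ.

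Junos, a long non-coding RNA read from the opposite strand of the Jun locus, rose by 2.32 under adenine (SE 0.15, adjusted p = 1.20e-09) and by 1.77 under SAM (adjusted p = 2.22e-08, both by limma and Benjamini-Hochberg), and DZ gave 0.34 (adjusted p = 0.064). The library kit marks strand, but whether the authors' quantification used it is not given in the sources used here. Reads of Jun and Junos may therefore have been shared, which was not tested. The mean of Junos over all libraries was 2.34 log2 CPM, beside group means of Jun from 6.08 in CTL to 7.48 under adenine.

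Junb (chromosome 8, 85701113 to 85705359), a weaker activator that competes with JUN, changed least among the members that rose in all 3 treatments. Its dishes lay between 7.06 and 7.15 log2 CPM in CTL, 7.24 and 7.28 in DZ, 7.55 and 7.66 under adenine, and 7.41 and 7.48 under SAM, with no overlap between groups. The rise was 1.41-fold under adenine (log2 fold change 0.49, SE 0.034), 1.26-fold under SAM (0.33) and 1.11-fold under DZ (0.15), the last lost as a call without CTL replicate 2 (0.12). Junb overlaps Prdx2 on the opposite strand. Prdx2 was called lower under DZ (-0.17) and higher under SAM (0.20), and adenine gave 0.10 with no call.

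Under adenine, 9 of the 10 members were called higher and none lower, beside 30.6% of all genes higher and 31% lower. Under SAM, 9 were called higher and 1, Ier2, lower, beside 33.7% and 35.7% of all genes. Under DZ, 7 were called higher and none lower, with Egr2, Fos and Ier2 not called, beside 22.6% and 23.4% of all genes. The median log2 fold change of the members was 1.32 for adenine, 1.12 for SAM and 0.18 for DZ, and that of all genes was -0.003, -0.02 and -0.01. All 3 treated dishes lay above all 3 CTL dishes for 9 members with adenine (37% of all genes), 9 with SAM (37.6%) and 7 with DZ (31.8%). These 3 comparisons share the CTL dishes, and since the list was chosen on such results, nothing is read from the counts.

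**Figure D2:**
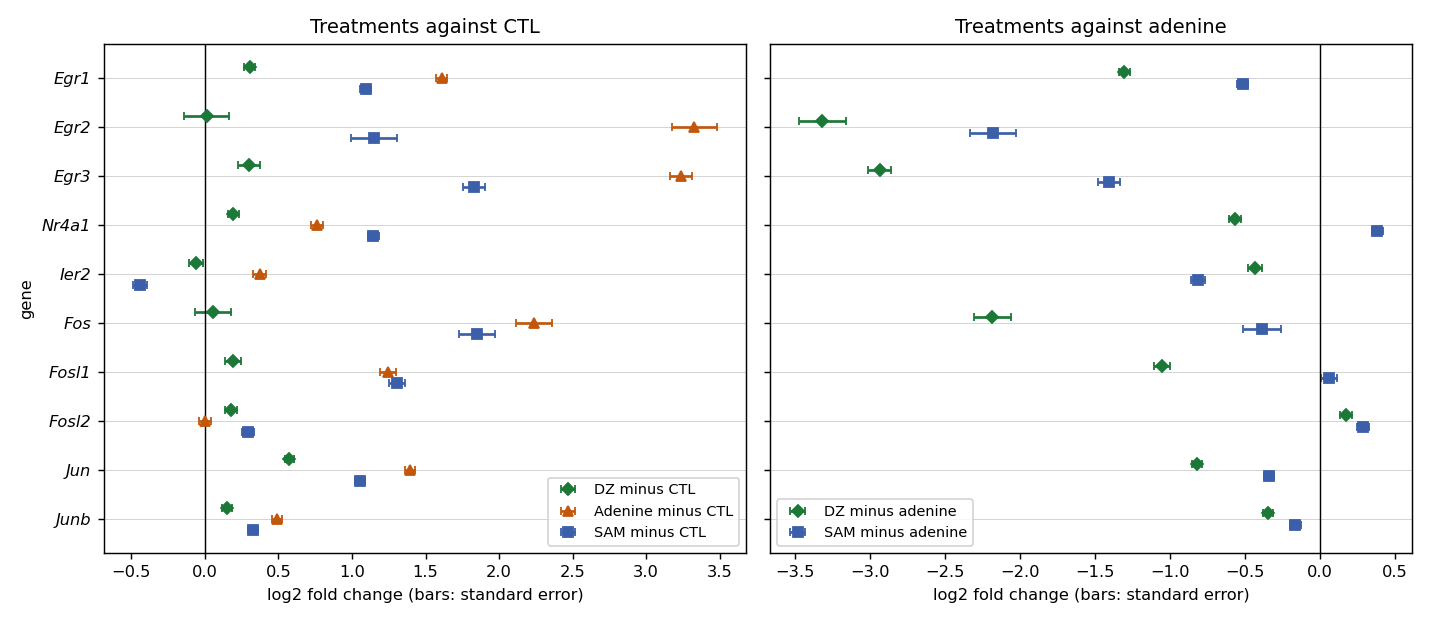
Log2 fold changes of the 10 genes, treatments against CTL at left and DZ and SAM against adenine at right, 1 row per gene, with bars of 1 standard error from the model of all 12 libraries. Egr2 and Egr3 lie beyond 3 under adenine, the DZ points lie between -0.06 and 0.58, and at right Fosl2 is the member above 0 for both treatments.

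SAM is broken down through methionine salvage, which releases adenine, so the 2 treatments were also set against each other without CTL. SAM gave lower levels than adenine for 6 members and higher levels for Nr4a1 and Fosl2, beside 22% and 20.8% of all genes called lower and higher. Egr2 was 4.52-fold lower under SAM (log2 fold change -2.18, SE 0.15), Egr3 2.65-fold lower, Ier2 1.76-fold lower (-0.81), Egr1 1.43-fold lower (-0.52), Jun 1.27-fold lower (-0.34) and Junb 1.12-fold lower (-0.16). Fos was 1.31-fold lower (-0.39, SE 0.12), with its SAM dishes below its adenine dishes but no call, and Fosl1 gave 0.06 and overlapped. Fos became a call with voom on recovered reads (-0.40), log2(CPM + 1) (-0.34), an FDR of 0.05 or a model of these groups alone, and the Junb call was lost with plain read totals (-0.10).

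DZ gave lower levels than adenine for 9 members and a higher level for Fosl2, beside 32.2% and 32.1% of all genes called lower and higher. The gap was 9.95-fold for Egr2, 7.65-fold for Egr3, 4.54-fold for Fos (log2 fold change -2.18), 2.47-fold for Egr1 and 2.08-fold for Fosl1 (-1.05). Fosl2 was 1.13-fold higher under DZ (0.17), a call lost with quantile normalization (0.09). The doses of DZ and adenine were not matched.

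Levels can be compared between genes once reads are divided by transcript length and by library size (RPKM). On that scale the EGR genes summed to 26.5 ± 1.55 (SD, n = 3) in CTL, 32.6 ± 0.697 in DZ, 90.2 ± 0.912 in adenine and 58.0 ± 0.783 in SAM. Egr1 made up most of that sum in every group, with 94.6% in CTL, 94.9% in DZ, 84.7% in adenine and 92.2% in SAM. Egr3 went from 3.71% in CTL to 10.3% in adenine and 6.06% in SAM, and Egr2 from 1.66% to 4.98% and 1.70%. Egr1 thus remained the main EGR mRNA, even though Egr2 and Egr3 had the larger folds.

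The 4 FOS genes (Fosb, no member, included) summed to 54.7 ± 2.07 RPKM in CTL, 62.1 ± 0.462 in DZ, 74.0 ± 1.11 in adenine and 83.3 ± 2.13 in SAM. Fosl2 held 77.4% of the FOS sum in CTL, 77.0% in DZ, 57.3% in adenine and 62.2% in SAM. Fosl1 held 20.2%, 20.3%, 35.3% and 32.8% in the same order, and Fos 1.65%, 1.49%, 5.78% and 3.93%. The smaller share of Fosl2 came with higher levels of Fosl1 and Fos, since Fosl2 itself was at 42.3 RPKM in CTL, 42.4 in adenine and 51.8 in SAM.

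The 3 JUN genes (Jund, no member, included) summed to 166 ± 6.03 RPKM in CTL, 188 ± 1.68 in DZ, 220 ± 8.24 in adenine and 188 ± 2.47 in SAM. Jun rose from 12.8% of that sum in CTL to 16.8% in DZ, 25.4% in adenine and 23.5% in SAM. Jund, which can act against JUN, went from 41.1% to 38.2%, 25.7% and 25.3%, and Junb lay between 45.0% and 51.2%.

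**Figure D3:**
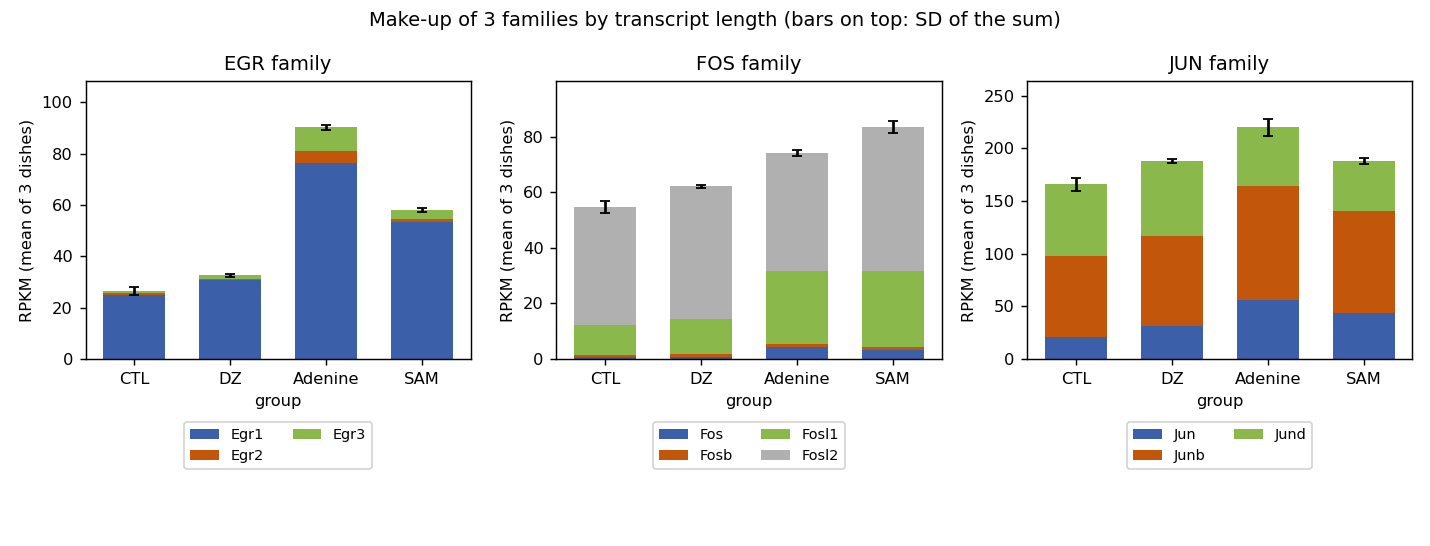
Mean RPKM (reads scaled by transcript length and library size, vertical axis) of the EGR, FOS and JUN genes in the 4 groups, stacked by gene, with bars of 1 SD of the family sum over 3 dishes. Egr1 fills most of each EGR bar, Fosl1 widens from 20.2% to 35.3% of the FOS bar under adenine, and Jun from 12.8% to 25.4% of the JUN bar.

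For every list below, the share of all genes called higher and lower was 30.6% and 31% under adenine, 33.7% and 35.7% under SAM, and 22.6% and 23.4% under DZ. The other EGR, NR4A and NAB genes were those that restrain or resemble the members, and 3 of 5 were listed (Egr4 and Nr4a3 were not). Here and below, an adjusted p is that of limma, by Benjamini-Hochberg over all genes. Nab2, the corepressor induced by EGR proteins, rose by 0.62 on the log2 scale under adenine (adjusted p = 1.70e-10), fell by 0.48 under DZ (adjusted p = 1.45e-08) and gave 0.08 under SAM (adjusted p = 0.0512). Nab2 overlaps Stat6 and Nemp1 on the opposite strand. Nemp1 rose by 1.02 under adenine and by 1.17 under SAM, and fell by 0.25 under DZ. Stat6 was called lower under adenine (-0.16) and higher under SAM (0.10), and DZ gave -0.09 with no call. Whether reads of these genes were shared was not tested. Nab1 rose by 0.35 under adenine (adjusted p = 7.37e-06) and 0.54 under SAM. Nr4a2, the sister receptor of Nr4a1, moved the other way under adenine and SAM. It rose by 0.93 under DZ (adjusted p = 1.16e-07), fell by 0.47 under adenine (adjusted p = 5.88e-05) and fell by 0.59 in the SAM dishes (adjusted p = 5.31e-06).

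Of 14 other AP-1 family genes, 11 were listed, and more fell than rose under SAM, with 1 higher and 8 lower, against 3 and 5 under adenine and 4 and 3 under DZ. Their median log2 fold changes were -0.27, -0.12 and 0.06. Atf3, a stress-induced AP-1 partner, fell by 3.79 under SAM (SE 0.050, adjusted p = 1.73e-17) and by 1.63 under adenine (adjusted p = 3.55e-13), and rose by 0.34 under DZ (adjusted p = 3.25e-05). Jund fell by 0.52 under SAM (adjusted p = 9.06e-09) and by 0.27 under adenine, and gave 0.07 under DZ (adjusted p = 0.125). Fosb, the sister of Fos, was low, with 0.69 to 0.93 log2 CPM in the CTL dishes and a mean of 2.12 under adenine. It rose by 1.35 under adenine (SE 0.16, adjusted p = 2.17e-06), 1.05 under SAM and 0.72 under DZ.

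All 32 other immediate early genes of the list were tested, and 17 were called higher and 5 lower under adenine, 17 and 5 under SAM, and 19 and 3 under DZ. The medians were 0.22, 0.16 and 0.24. Arc, a synaptic immediate early gene, went furthest under adenine with 2.40 (SE 0.068, adjusted p = 1.64e-13), beside 1.52 under SAM and 1.13 under DZ. Zfp36l1, which speeds the decay of AU-rich mRNAs, rose by 1.00 under adenine (adjusted p = 1.49e-12), 1.41 under SAM and 0.85 under DZ. Klf4, a zinc-finger factor, fell by 1.53 under SAM (adjusted p = 8.74e-13) and by 0.31 under adenine, and DZ gave -0.04 (adjusted p = 0.599).

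The 29 genes that lead from growth factor receptors through ERK to SRF and CREB were called about as often as all genes, with 9 higher and 9 lower under adenine, 10 and 9 under SAM, and 6 and 8 under DZ, and medians of -0.02, 0.02 and -0.04. The receptors Egfr and Pdgfra were among the risers. Egfr rose by 1.84 under adenine (adjusted p = 5.94e-14) and 1.77 under SAM, and Pdgfra by 1.89 (adjusted p = 9.27e-12) and 2.55. The kinase Map2k1 (MEK1) fell by 0.52 under adenine and by 1.01 under SAM (adjusted p = 3.79e-13). Srf itself was not called, with 0.14 under adenine (adjusted p = 0.0101) and, for SAM, 0.02 (adjusted p = 0.748).

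ERK feedback inhibitors, which ERK signalling induces and which damp it, were called higher for 7 of the 9 listed under adenine and under SAM, with 1 lower in each, and for 5 with 2 lower under DZ. Their medians were 0.69, 0.58 and 0.21. Errfi1, which binds and inhibits EGFR, rose by 1.89 under adenine (SE 0.039, adjusted p = 1.10e-14), 1.23 under SAM and 0.42 under DZ. Spry1 rose by 1.25, 1.45 and 1.14 (adjusted p = 1.02e-11 for DZ), so that DZ moved it nearly as far as adenine did. The direct difference of DZ and adenine for Spry1 was -0.11 (adjusted p = 0.0174), whereas that for Errfi1 was -1.48 (adjusted p = 1.04e-13).

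Textbook targets of the factors were read from the same fit. Of 10 EGR1 targets, 7 were called higher and 2 lower under adenine, 6 and 1 under SAM, and 1 and 3 under DZ, with medians of 0.42, 0.43 and -0.05. Vegfa was among those that fell, by 0.61 under adenine, 1.59 under SAM (adjusted p = 5.43e-16) and 0.21 under DZ. Of 14 AP-1 targets, 11 were listed, with 7 higher and 2 lower under adenine, 7 and 3 under SAM, and 6 and 2 under DZ, and medians of 0.79, 0.90 and 0.21. Mmp3, a matrix metalloproteinase, rose by 2.48 under adenine (adjusted p = 6.35e-12), 2.99 under SAM and 1.54 under DZ, and Hmox1 fell by 1.08 under adenine (adjusted p = 5.00e-13) and by 0.90 under SAM. Cd44, Nab1 and Nab2 each stand in more than 1 of these lists.

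**Figure D4:**
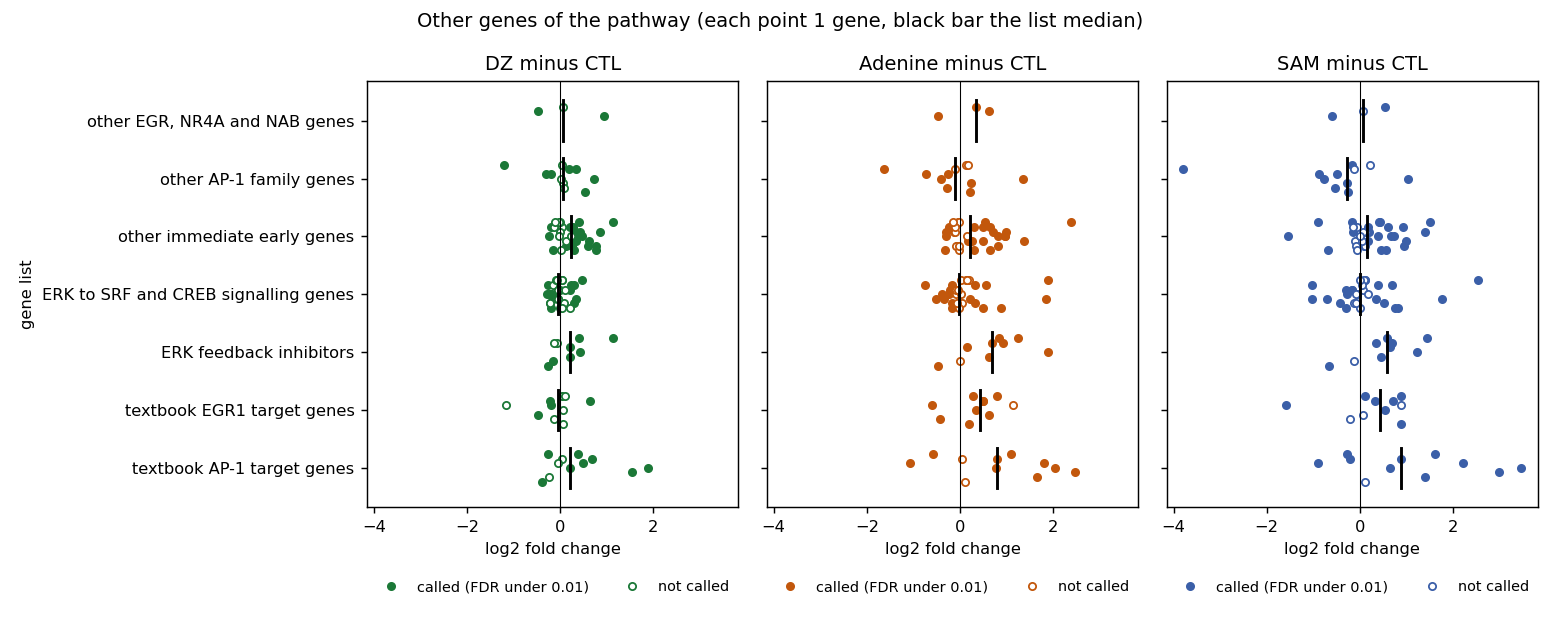
Log2 fold change against CTL (horizontal axis) of every listed gene in 7 gene lists around the 10 members, 1 point per gene, filled where called at an FDR under 0.01, with a black bar at the list median. The medians of the AP-1 targets are 0.21 under DZ, 0.79 under adenine and 0.90 under SAM, and Atf3 lies farthest left under SAM at -3.79.

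The pattern of Egr1 and Egr3 over the 12 libraries was also close to that of genes that are no members. Among 2019 genes whose group means varied enough (SD of at least 0.5 on the log2 scale), Pearson r with Egr1 was 0.995 for Col6a1 and Errfi1, 0.992 for Pcdh10 and 0.991 for Scara5. For Egr3 it was 0.994 for Sparc and 0.990 for Col3a1, Arsj and Adgrg6. Col6a1, Col3a1 and Sparc encode secreted matrix proteins. Between members, r with Egr1 was 0.99 for Egr3, 0.97 for Fos, Jun and Junb, 0.26 for Ier2 and 0.07 for Fosl2. These values describe 12 points that fall into 4 groups and share the group differences, and they carry no test.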

How the data were processed

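Polyadenylated RNA of 12 dishes was sequenced with a stranded kit. Per the labels and the study's methods, the authors trimmed reads with Trimmomatic, aligned them to GRCm39 with HISAT2, quantified GENCODE vM27 genes with StringTie and normalized them with edgeR. The deposited table holds log2 CPM of 12591 genes, and its filter and scaling are the authors'. The authors' test needs counts, so limma 3.58.1 (R 4.3.3) was run on the log2 values: lmFit on 4 groups, contrasts, and eBayes with a variance trend, with Benjamini-Hochberg adjustment over all genes and an FDR of 0.01. It was tested on simulated data. Whole reads were recovered from the log2 values by solving each library's scale with a prior count of 2 (100% whole within 0.01); they derive from coverage and gave depth and RPKM. Symbols, lengths and windows are from GENCODE vM39, with 12575 identifiers matched.

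The members, lists and tests were chosen with earlier results of these data known. Named genes are all members and, per list and comparison, up to 4 called genes with the smallest adjusted p and a mean of at least 3 log2 CPM. Their values in other comparisons, Fosb, Srf and overlapping genes were added after values were seen. Genes like Egr1 and Egr3 are among the 5 with the highest Pearson r. Some items that these rules name are not reported here. Alternatives were other scalings, filters, thresholds, tests and models, a replicate block, protein-coding genes only, and leaving out each library. The same-numbered dishes had deviations with r between -0.142 and 0.181, and the main fit treated them as unpaired. These values do not show whether such dishes were handled together. No protein sequences were used here. Tables and plots were made in Python 3.11.15 (pandas 2.3.3, numpy 2.4.6, matplotlib 3.10.9).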

Additional observations from a re-analysis of the deposited data

How the results depend on the processing

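Over the 10 members, 5 comparisons and all alternatives, 927 of 980 recomputed log2 fold changes kept their direction and their side of the FDR threshold, 42 lost and 4 gained a call, and 7 changed sign, all of them values not called in the first place. With median centring, Egr2 under DZ went to -0.0032 and Fosl2 under adenine to -0.048. With each library left out in turn, Egr2 under DZ ranged from -0.16 (without DZ replicate 3) to 0.14 and was also below 0 without CTL replicate 1 (-0.11), Fos under DZ from -0.048 (without CTL replicate 1) to 0.19, and Fosl2 under adenine from -0.023 (without CTL replicate 3) to 0.036, with -0.0036 without CTL replicate 1. The cause was not tested. Where a log2 fold change of at least 1 was required, the members called were 0 of 10 for DZ against CTL, 2 for SAM against adenine (Egr2 and Egr3) and 5 for DZ against adenine, and of 102 list genes 5 were called under DZ (63 without the requirement), 14 under adenine (74) and 18 under SAM (75), by the construction of the rule. The main fit treated same-numbered dishes as unpaired. With the replicate block, 7 members were called under DZ, 9 under adenine, 10 under SAM, 8 for SAM against adenine and 10 for DZ against adenine, as without it. Filters on low values removed Egr2 and Fos, which were then not tested. Of the members, Egr2 and Fos rest on the fewest reads, with 48 to 79 and 72 to 104 reads per CTL or DZ dish. DZ calls of Fosl1, Egr3, Junb and Fosl2 were lost without single libraries, as given beside each gene.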
